A study of Mus musculus with 2 samples.

Results

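Cluster 4 is 1 of 11 cell clusters that the study's authors drew from 2 single-cell libraries of mouse adenocarcinomas, and it is described here as macrophage-like. Its members are all genes that the authors' deposited table gives for cluster 4, with the fold and the p-value that stand beside each gene. They number 5762, of 18319 genes named anywhere in the table. The other myeloid clusters of the table, 8 and 10, hold 4844 and 3466 genes, and their values are set beside those of cluster 4.

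Both tumors arose from cells that the labels call DP-DSCs, injected into female mice of the strain labelled NuJ. The first library came from a cystic adenocarcinoma collected 10 weeks after the injection, and the other from a tubular adenocarcinoma collected 13 weeks after it. Fresh tumor tissue was dissociated and its cells were captured in droplets on the inDrop platform, in which barcoded beads tag the transcripts of single cells. Mice of the nude strain with a similar name lack a thymus and most T cells and keep macrophages and other innate cells. The labels give neither the genotype of the host, the site of injection nor whether animals were pooled, and tissue without tumor was not analysed here.

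Macrophages are phagocytes that take up dead cells, debris and microbes and break them down in lysosomes. They arise from circulating monocytes or from precursors settled in the tissue before birth, and depend on the receptor Csf1r and on the transcription factor Spi1, also called PU.1. In tumors they are among the most frequent immune cells, and they can present antigen, release chemokines that draw in other leukocytes, take up lipid and iron, or restrain T cells by consuming arginine.

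The table holds 1 fold and 1 p-value per gene and cluster, and 0 columns of values per library. Each tumor type has a single library and so no replicate, and the cystic and the tubular tumor cannot be compared within cluster 4. How many transcripts were read per cell is not given in the sources used here. Thus the depth of the data is unknown. The size of cluster 4 is not clearly stated either. The authors' label for their table refers to a fixed number of cells each, without telling whether tumors or clusters are meant. Whether the folds rest on such an equal draw of cells is not stated. The clusters were drawn from the same genes that the folds describe. The test behind the deposited p-values is not stated, and cells, if they are its units, are not replicates. No test was therefore made, and every value is a description of these pooled libraries. The lowest fold in the cluster 4 column is 1.5, so genes that are lower in the cluster, or only slightly higher, do not appear in the table. The reference of the fold is not named in the table. Tables of this kind mostly set a cluster's cells against all others, and in that case clusters 4, 8 and 10 share most of their reference cells, so that their lists are not independent of each other.

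The word listed is used of a gene that the table gives for a cluster, and raised of a gene for which its deposited fold is at least 2 and its deposited p-value at most 0.05. In cluster 4, 3402 of the 18319 named genes were raised, which is 18.6%. In cluster 8 the number was 1166, or 6.36%, and in cluster 10 it was 897, or 4.9%. Cluster 4 listed 31.5% of the named genes, cluster 8 listed 26.4% and cluster 10 listed 18.9%. Counts of members in the 3 clusters are to be read against these backgrounds, since a larger share of all named genes was raised in cluster 4 than in cluster 8 or 10. This holds also where a count stands without its share. The limit on p removes far more genes from the other 2 clusters: at a fold of at least 2 and any p, 4258 genes are listed in cluster 4, 3719 in cluster 8 and 2907 in cluster 10. A larger count of raised genes in cluster 4 is therefore not by itself a broader list. All folds given are those of the authors' deposited table.

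The 5 marker genes given for the label come from the values of cluster 4 itself, so their folds are a description and no check of the label. Ctss, which encodes the lysosomal protease cathepsin S that trims the invariant chain of MHC class II, comes first of all cluster 4 genes in the order of the deposited p-value, at a deposited fold of 5.75. Lyz2, the lysozyme of macrophages and neutrophils, comes 4th with a deposited fold of 6.95. Cd68, a glycoprotein of the lysosomal membrane, has a fold of 8.90, again from the authors' deposited table. C1qc, 1 of the 3 chains of the complement starter C1q, stands at 7.47. Gpnmb, a transmembrane glycoprotein of lipid-loaded and lysosome-rich macrophages, has a deposited fold of 76.7, the highest of the raised genes of the cluster.

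Side by side, 4 of these 5 markers were also high in cluster 8, where the deposited folds were 4.52 for Ctss, 5.69 for Lyz2, 5.33 for Cd68 and 5.10 for C1qc. In cluster 10 only Lyz2 was raised, at 2.43, while Ctss was listed with a fold of 3.12 at a deposited p above 0.05, and Cd68 and C1qc were listed below the fold limit at 1.86 and 1.76. Gpnmb was listed in none of the other 10 clusters. In the order of the deposited p of cluster 4, Cd68 held place 47, C1qc place 173 and Gpnmb place 1333, so the marker of largest fold came last of the 5 in that order.

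The stretches of the mouse genome before the starts of these marker genes are shown because PU.1 and the interferon-regulated factors are known to act on myeloid genes close to the start, and because the genes raised in cluster 4 were searched for the letters these factors are known to prefer. The sequences are those of RefSeq on build GRCm38.p6, written 5′ to 3′ along the gene's own strand. Each covers the 250 bases before the RefSeq start, cut short where GENCODE annotates an exon. Capitals mark the PU-box GAGGAA and the interferon element GAAANNGAA on either strand, so that TTCCTC is a PU-box read on the opposite strand. Ctss (chr3:95526786-95556403, plus strand) is shown with chr3:95526536-95526785, which holds 1 PU-box and 1 interferon element. Cd68 (chr11:69664213-69666153, minus strand) is shown with chr11:69666171-69666420, with 1 PU-box. C1qc (chr4:136889804-136893065, minus strand) is shown with the 99 bases chr4:136893066-136893164, also with 1 PU-box. Lyz2 (chr10:117277331-117282321, minus strand) is shown with the 201 bases chr10:117282322-117282522 and Gpnmb (chr6:49036546-49070929, plus strand) with chr6:49036268-49036517, and neither stretch holds a match.
Ctss: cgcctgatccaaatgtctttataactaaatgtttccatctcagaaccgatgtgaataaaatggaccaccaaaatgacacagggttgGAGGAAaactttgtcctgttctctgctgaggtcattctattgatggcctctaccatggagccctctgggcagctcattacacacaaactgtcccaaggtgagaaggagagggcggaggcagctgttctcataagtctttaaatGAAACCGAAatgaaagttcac
Cd68: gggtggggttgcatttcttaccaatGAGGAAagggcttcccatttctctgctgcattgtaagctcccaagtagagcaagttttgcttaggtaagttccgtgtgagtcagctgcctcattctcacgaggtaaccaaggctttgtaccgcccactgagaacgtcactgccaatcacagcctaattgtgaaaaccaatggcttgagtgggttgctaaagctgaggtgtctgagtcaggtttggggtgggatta
C1qc: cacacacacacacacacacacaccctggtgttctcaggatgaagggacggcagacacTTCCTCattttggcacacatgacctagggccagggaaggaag
Lyz2: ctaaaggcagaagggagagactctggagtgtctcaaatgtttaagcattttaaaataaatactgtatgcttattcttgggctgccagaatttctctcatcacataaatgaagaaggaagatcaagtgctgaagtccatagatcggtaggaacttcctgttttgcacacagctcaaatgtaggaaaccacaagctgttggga
Gpnmb: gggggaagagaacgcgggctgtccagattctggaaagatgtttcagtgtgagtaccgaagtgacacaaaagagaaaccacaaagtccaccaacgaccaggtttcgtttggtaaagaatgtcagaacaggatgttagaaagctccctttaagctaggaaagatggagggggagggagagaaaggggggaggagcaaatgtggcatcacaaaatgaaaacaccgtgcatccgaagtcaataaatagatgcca

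The list of 21 macrophage identity genes includes such markers and was chosen with results of these data known, so its counts too are a description. All 21 are named in the table, and 20 of them were raised in cluster 4 and 20 in cluster 8, against 11 in cluster 10. The median deposited fold of the listed members was 5.09 in cluster 4, where the median over all 5762 listed genes was 2.76. In cluster 8 the corresponding medians were 5.18 for the members and 2.97 for all listed genes, and in cluster 10 they were 4.24 and 3.92. These genes were thus raised in cluster 4 and in cluster 8 in equal number, against backgrounds of 18.6% and 6.36% of all named genes.

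Within that list the folds spread widely. Mertk, a receptor for dying cells, had a deposited fold of 11.4 in cluster 4 and 5.34 in cluster 8. Fcgr1, the high-affinity receptor for IgG, had a deposited fold of 8.88 beside 6.11. Neither Mertk nor Fcgr1 was listed in cluster 10.

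At the lower end of the list stood several genes that are shared by the myeloid lineage. Spi1, which encodes PU.1, had deposited folds of 3.01, 5.83 and 8.06 in clusters 4, 8 and 10. Aif1, an actin-binding protein of monocytes and macrophages, had deposited folds of 2.31, 4.78 and 14.3 in the same order. Csf1r, the receptor for the macrophage growth factor, had deposited folds of 3.57, 5.12 and 3.3. For Spi1 and Aif1 cluster 4 thus had the lowest of the 3 deposited folds. Cx3cr1, the fractalkine receptor of monocytes and of many tissue macrophages, is the only member that cluster 4 did not list, while its deposited fold was 2.91 in cluster 8 and 5.29 in cluster 10.

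Markers of other cell types were counted in the same way. None of 16 epithelial genes was listed in cluster 4, among them Epcam, Cdh1 and Krt8, and none of 21 cell cycle genes was raised, the only listed one being Ccna2 at a deposited fold of 1.62. Among 16 neutrophil genes, 2 were raised in cluster 4, Clec4d at a deposited fold of 3.76 and Mmp8 at 2.18, against 11 in cluster 10. These shares are 12.5% and 68.8%, beside 18.6% and 4.9% of all named genes in clusters 4 and 10. The defining neutrophil genes S100a8, S100a9, Csf3r and Cxcr2 were not listed in cluster 4, and all 4 were raised in cluster 10 at deposited folds of 12.1, 18.9, 57.2 and 53.0. Cluster 10 thus differed from cluster 4 in the values of the genes that define neutrophils, a difference that was not tested.

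Some genes of other lineages were raised in cluster 4 all the same. Among 18 dendritic cell genes 6 were raised, with Wdfy4 at a deposited fold of 11.1 and Cd209a at 10.9. Xcr1, a receptor of the cross-presenting subset, was listed at 2.7 and not raised, and Flt3 and Clec9a were not listed, while in cluster 8 they stood at 42.5 and 74.6. Of the 10 named T and NK cell genes Il7r, the interleukin-7 receptor, had a deposited fold of 31.2 and Klrd1 a deposited fold of 4.10, and Cd3e, Cd4, Cd8a, Lck and Nkg7 were not listed. Of 13 fibroblast and pericyte genes Pdgfrb was raised at a deposited fold of 11.3 and Fap at 9.78, both of which cluster 11 also listed, at 7.19 and 1.61, while Col1a1, Col1a2, Col3a1, Dcn and Lum were not listed. Kit, the receptor of mast cells and of some progenitors, was raised at a deposited fold of 5.32, while the mast cell proteases Cpa3, Mcpt4, Tpsb2 and Tpsab1 were not listed. Only 2 B cell genes are named in the table. Ighm, the heavy chain of IgM, was raised at 2.97 in cluster 4 and at 16.7 in cluster 10, and Ebf1 was not listed in cluster 4. The share raised in cluster 4 was 33.3% of the dendritic and 20% of the T and NK cell genes. It was 15.4% of the fibroblast and pericyte genes and 11.1% of the mast and basophil genes. Over all named genes the share was 18.6%, so all of these but the dendritic share lay near or below it. Each of these 5 lists thus had members raised in cluster 4 beside members that were not listed. The part that such cells, doublets or free RNA have in the single raised genes was not tested.

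**Figure D1:**
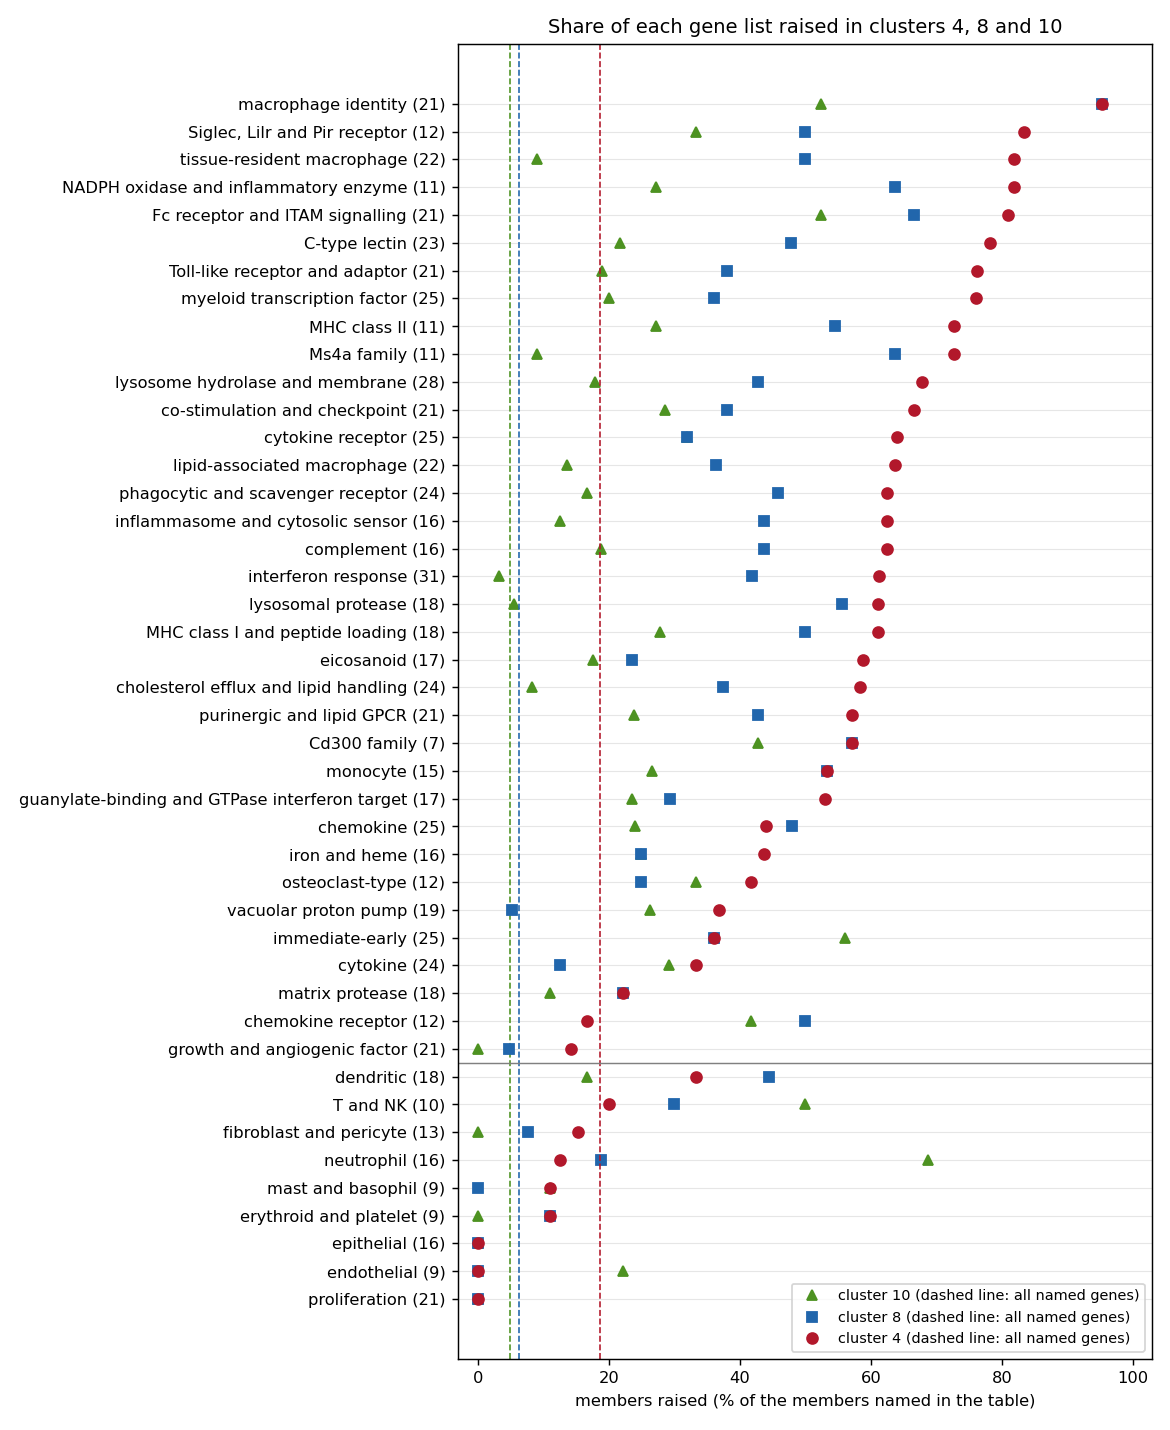
Share of each gene list raised in clusters 4 (red circles), 8 (blue squares) and 10 (green triangles), in percent of the list's members named in the table (their number is in parentheses); equal shares overlap, with cluster 4 drawn on top. The B cell list, of which only 2 members are named in the table, is not shown. Dashed lines give the share over all named genes, 18.6%, 6.36% and 4.9%, and the lists under the grey line are other cell types and proliferation. The macrophage identity list lies at the top, with 20 of 21 members raised in cluster 4, and the epithelial and proliferation lists at 0.

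The genes at the head of the deposited p order and those of the largest fold had no gene in common. The first 25 named genes in the order of the deposited p had deposited folds between 2.56 and 13.4, with a median of 6.60. In cluster 8, all 25 of them were also raised, and in cluster 10 18 were listed and 9 raised. They include Fcer1g, the signalling chain of Fc receptors, the chemokines Ccl9 and Ccl6, Alox5ap, which hands arachidonic acid to 5-lipoxygenase, the scavenger receptor Msr1, the lysosomal membrane protein Laptm5, and the adaptor Tyrobp. The 25 named genes of largest fold in cluster 4 had deposited folds between 23.8 and 76.7, and their places in the p order ran from 406 to 3697. Of these 25, 1 was listed in cluster 8 (Hebp1, at 1.96) and none was raised there, and none was listed in cluster 10.

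After Gpnmb, the named genes of largest deposited fold were Egr2 at 64.4, Cd209b at 51.3, Fam169b at 44.6, Ugt1a2 at 44.4 and Bcl11a at 40.9. Egr2 encodes a zinc-finger transcription factor that is induced by growth factors and by interleukin-4, Cd209b a C-type lectin that binds sugars on microbes, Ugt1a2 a glucuronosyltransferase and Bcl11a a zinc-finger protein of B cell and dendritic cell development. Ifitm6, a member of the interferon-induced transmembrane family, had a deposited fold of 35.7, and Il18bp, the secreted protein that neutralises interleukin-18, had 35.7 as well. None of these genes was listed in cluster 8 or cluster 10.

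Genes that were both early in the p order and of large fold were taken as a further group. The 20 named genes of largest fold among the first 500 by p had deposited folds between 14 and 35.7, and 12 of them were listed and 7 raised in cluster 8, against 5 listed and none raised in cluster 10. Hopx, a small homeodomain protein, had the earliest place of these, 34, with a deposited fold of 20.9 beside 2.78 in cluster 8. Pf4, a chemokine of platelets and of some tissue macrophages, held place 62 with a deposited fold of 17.9 beside 2.90. F13a1, the A chain of coagulation factor XIII, held place 44 with a deposited fold of 14.2 beside 3.68. Cd93, a receptor linked to the uptake of dying cells, held place 76 with a deposited fold of 17.3 beside 3.61 in cluster 8 at a deposited p above 0.05.

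**Figure D2:**
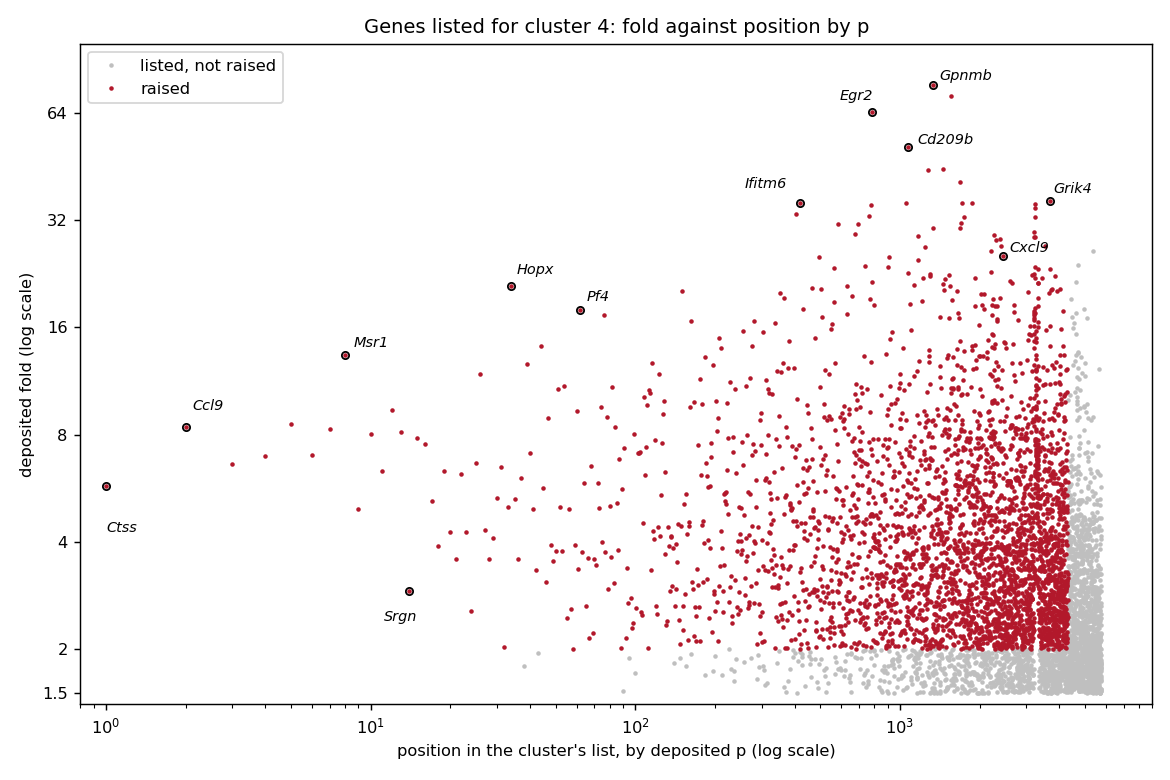
Deposited fold (log scale) against place in the order of the deposited p (log scale) for the 5762 genes of cluster 4; red points are raised, grey points are listed but not raised, and some genes are named. Ctss and Ccl9 lie at the left with folds of 5.75 and 8.39, and Egr2, Cd209b and Gpnmb lie at places 787, 1076 and 1333.

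Most raised genes had modest folds. Of the 3402 raised genes, 2275 had a deposited fold under 5, 806 between 5 and 10, 240 between 10 and 20, and 81 of 20 or more. The median deposited fold of the raised genes was 3.73 in cluster 4, 5.61 in cluster 8 and 11.1 in cluster 10. Equal folds in the 3 clusters are thus not equally rare, and a deposited fold of 5 lies above the median of the raised genes in cluster 4 and below it in clusters 8 and 10. The share of raised genes that GENCODE annotates as protein coding was 88.7% at folds between 2 and 3, 78.9% between 5 and 10, and 61.0% at 20 or more.

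Genes of tissue-resident macrophages had a median deposited fold of 8.84 in cluster 4, beside the 5.09 of the macrophage identity genes. Of the 22 genes in that list, 18 were raised in cluster 4, 11 in cluster 8 and 2 in cluster 10, and the median deposited fold of the listed members was 3.97 in cluster 8 and 3.48 in cluster 10. Besides Cd209b, the related lectins Cd209d and Cd209g had deposited folds of 23.6 and 19.1. Cbr2, a carbonyl reductase found in resident macrophages of several tissues, had a deposited fold of 20.3 beside 3.73 in cluster 8. Lyve1, a hyaluronan receptor of perivascular macrophages and lymphatic vessels, had a deposited fold of 12.3, and in cluster 8 5.47 at a deposited p above 0.05. Retnla, a secreted protein induced by interleukin-4, had a deposited fold of 11.8 beside 7.10 in cluster 8.

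Other members of that list did not stand out in cluster 4. Cd163, the receptor for haemoglobin bound to haptoglobin, had a deposited fold of 5.91 in cluster 4 and 9.06 in cluster 8. Folr2, the folate receptor of resident macrophages, was listed at 2.50 in cluster 4 at a deposited p above 0.05, and raised at 4.88 in cluster 8. Timd4, a receptor for phosphatidylserine on dying cells, was listed at 1.76 and Igf1, a growth factor, at 1.83, both below the fold limit of 2. Selenop, a selenium transport protein, was not listed in cluster 4 and was raised at 2.0 and 3.17 in clusters 8 and 10. Marco, a scavenger receptor, had a deposited fold of 7.19 and is 1 of 140 genes of cluster 4 that carry a single shared p-value.

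Genes of lipid-associated macrophages gave a divided picture. Of 22 such genes, 14 were raised in cluster 4, 8 in cluster 8 and 3 in cluster 10. Receptors for modified lipoproteins and fatty acids were high, with Msr1 at a deposited fold of 13.4 beside 6.14 in cluster 8 and Cd36 at 11.4 beside 6.68. Pltp, which transfers phospholipids between lipoproteins, had a deposited fold of 10.9 and was not listed in cluster 8 or 10. Trem2, a lipid receptor that signals through Tyrobp, had deposited folds of 5.45 and 5.71 in clusters 4 and 8. Apoe, an apolipoprotein that macrophages secrete, had deposited folds of 3.34, 4.36 and 2.43 in clusters 4, 8 and 10.

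Several genes commonly named with Gpnmb and Trem2 were not among those raised in cluster 4. Spp1, which encodes osteopontin, was listed at a deposited fold of 1.52, below the limit of 2, and Fabp4, Fabp5, Cd9, Cd63, Lgals3 and Pparg were not listed. Cd9 was listed in clusters 5, 6, 9 and 10 at deposited folds of 2.45, 2.01, 1.89 and 1.56, and Lgals3 in clusters 2 and 7 at 2.02 and 2.50. A gene that the other cells of a tumor also express can have a fold under the table's limit, so an absent gene is not shown to be silent in cluster 4.

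**Figure D3:**
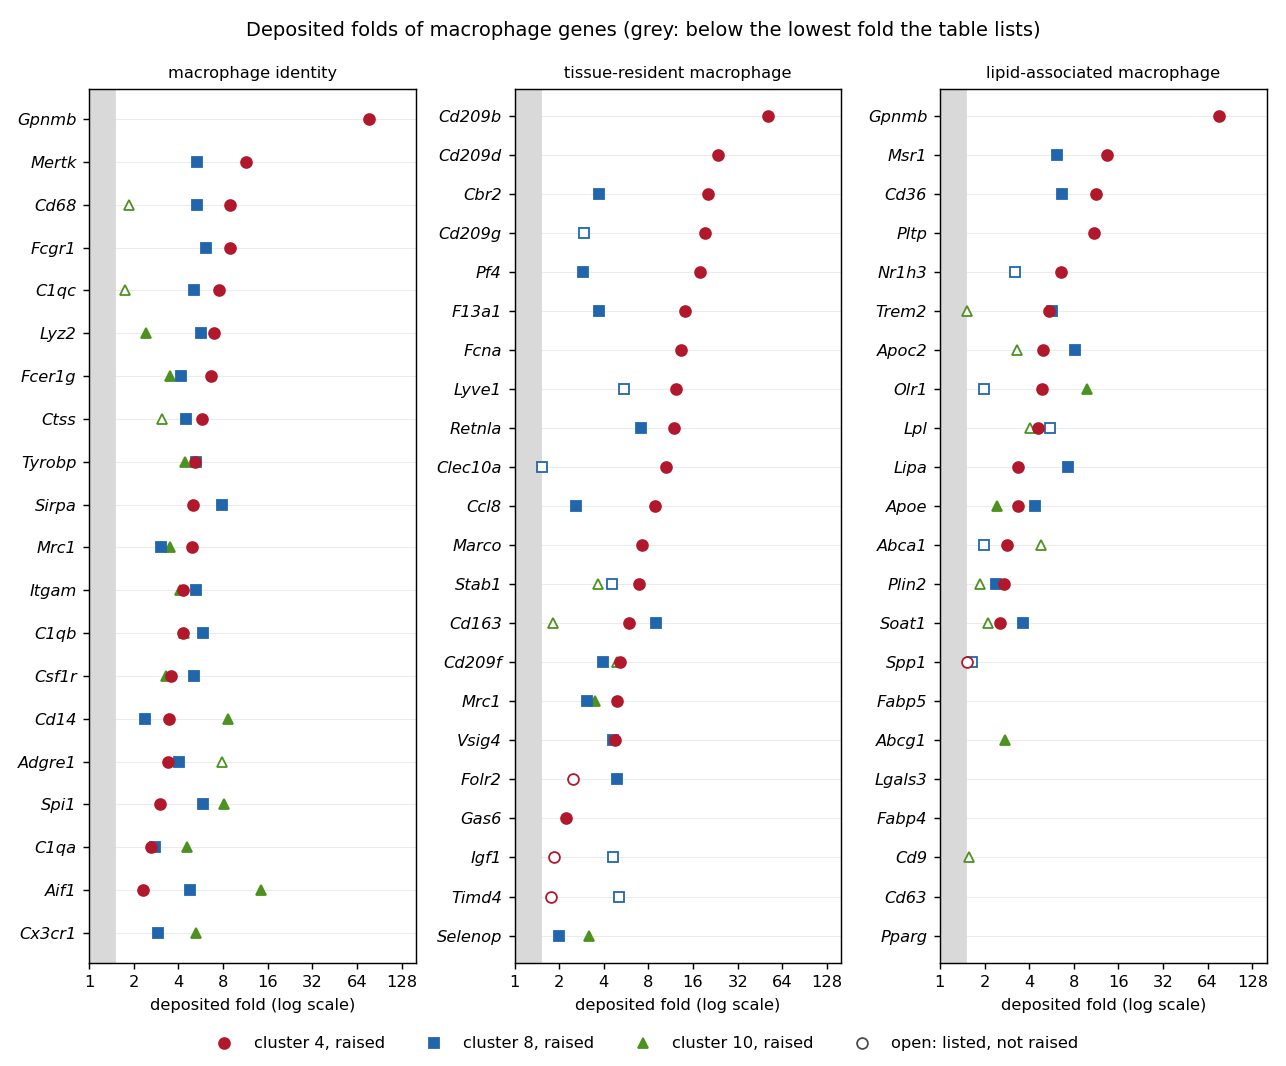
Deposited folds (log scale) of the macrophage identity, tissue-resident and lipid-associated genes in clusters 4 (circles), 8 (squares) and 10 (triangles), without 1 gene that is not reported; filled symbols are raised, open ones listed but not raised, and a missing symbol means not listed. The grey band covers folds under 1.5, which the table does not give. Gpnmb at 76.7 and Cd209b at 51.3 have the largest folds and no symbol for clusters 8 and 10, while Cx3cr1 has symbols for clusters 8 and 10 alone.

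Monocyte genes were raised in equal number in clusters 4 and 8, with 8 of 15 in each, and 4 in cluster 10. The shares, 53.3%, 53.3% and 26.7%, stand beside 18.6%, 6.36% and 4.9% of all named genes, so equal numbers meet unequal backgrounds. Ly6c2, a surface protein of inflammatory monocytes, had a deposited fold of 2.94 in cluster 4 and 13.1 in cluster 8. Ccr2, the receptor through which monocytes leave the bone marrow, had 6.48 in cluster 4 and 10.4 in cluster 8, and Chil3, a chitinase-like protein, had 4.57 and 10.6. Vcan and Fn1, which encode the matrix proteins versican and fibronectin, lay the other way, at deposited folds of 8.41 and 5.85 in cluster 4 beside 3.45 and 3.86 in cluster 8. These pairs have no error, and whether the clusters differ in them was not tested.

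The degradative machinery of the cell was represented by 3 lists. Of 18 lysosomal proteases and their inhibitors, 11 were raised in cluster 4, 10 in cluster 8 and 1 in cluster 10. Ctsa, the carboxypeptidase that protects neuraminidase, had the highest deposited fold of them, 6.20, followed by Ctss at 5.75. Ctsb, an abundant cysteine protease, had a deposited fold of 3.73, and Lgmn, the asparaginyl endopeptidase, had 3.74. Ctsd, the main aspartic protease of lysosomes, was listed at 1.88, below the fold limit of 2, and Ctse and Ctsf were not listed.

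Of 28 lysosomal hydrolases and membrane proteins, 19 were raised in cluster 4, 12 in cluster 8 and 5 in cluster 10. After Cd68 the largest deposited folds were those of Grn, the precursor of granulins, at 6.03, Pla2g15, a lysosomal phospholipase, at 5.82, and Hexa, a subunit of hexosaminidase, at 5.68. Psap, which gives rise to the saposins, had deposited folds of 4.10, 3.56 and 3.10 in clusters 4, 8 and 10. Lipa, the acid lipase that frees cholesterol from its esters, had 3.35 in cluster 4 and 7.33 in cluster 8. Lamp1, the most abundant lysosomal membrane protein, was listed in all 3 clusters at 1.69, 1.83 and 1.72.

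Subunits of the vacuolar proton pump, which acidifies lysosomes, were raised in 7 of 19 cases in cluster 4, 1 in cluster 8 and 5 in cluster 10. As shares these are 36.8%, 5.26% and 26.3%, beside 18.6%, 6.36% and 4.9% of all named genes. Atp6v1b2, a subunit of the part that splits ATP, had the largest deposited fold, 5.12, and Atp6v1a, its partner, had 3.81. Atp6v0d2, the subunit found in osteoclasts and some macrophages, was not listed in cluster 4 and had a deposited fold of 35.8 in cluster 10. The transcription factors of the MiT family, some of which are known to drive lysosomal genes, were all raised in cluster 4, Tfec at a deposited fold of 5.70, Mitf at 4.52, Tfe3 at 3.87 and Tfeb at 3.72. In cluster 8 Mitf was raised at 2.56 and the other 3 were listed between 1.57 and 2.31 at a deposited p above 0.05.

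Receptors through which macrophages recognise what they take up were raised in most cases. In the list of Fc receptors and their signalling partners 17 of 21 were raised in cluster 4, 14 in cluster 8 and 11 in cluster 10. Whether raised or not, 18, 18 and 15 were listed. Clec5a, a lectin that signals through Tyrobp, had the largest deposited fold, 9.17, followed by Fcgr1 at 8.88 and the adaptor Lcp2 at 7.70. The inhibitory receptor Fcgr2b had 4.25 and 4.28 in clusters 4 and 8. Trem1 and Trem3, which are known from neutrophils and monocytes, were not listed in cluster 4 and were raised at deposited folds of 2.51 and 4.01 in cluster 10.

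Of 24 phagocytic and scavenger receptors 15 were raised in cluster 4, with 11 in cluster 8 and 4 in cluster 10. Counting all listed members, the numbers were 18, 18 and 8, at median deposited folds of 5.72, 5.19 and 3.84. The integrin chain Itgb2 had a deposited fold of 6.66 in cluster 4 and 9.93 in cluster 8, and Itgal, which pairs with it, had 2.23 and 11.4. Itgax, known as CD11c, was not listed in cluster 4 and was raised at 2.79 and 5.94 in clusters 8 and 10. Axl and Tyro3, the relatives of Mertk, were not listed in clusters 4, 8 and 10. Mertk was thus the only receptor of its family of 3 with a value in cluster 4.

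C-type lectins include Cd209b, with its deposited fold of 51.3. The median deposited fold of the lectins listed in cluster 4 was 5.13, beside 5.72 for the phagocytic and scavenger receptors. Of 23 named members, 18 were raised in cluster 4, 11 in cluster 8 and 5 in cluster 10. All 5 named genes of the Cd209 group on chromosome 8 (from 3743397 to 4137707) were raised in cluster 4, against 2 in cluster 8 and none in cluster 10. On chromosome 6, between 122921848 and 123289870, 7 of the 8 named genes of the Clec4 group were raised, with Clec4a2, an inhibitory receptor, at a deposited fold of 10.7. The exception in the lectin list was again on the side of cluster 8, where Clec9a had 74.6 and Clec4b1 had 22.2 while neither was listed in cluster 4. The genes of each group are similar copies that lie next to each other, and reads that fit several copies could have been counted for any of them, so that single folds within a group are uncertain.

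Receptors of the Siglec, Lilr and Pir families were raised in 10 of 12 cases in cluster 4, 6 in cluster 8 and 4 in cluster 10. Listed at any p were 10, 10 and 7 of them, at median deposited folds of 4.37, 3.33 and 7.30. Siglec1, a sialic acid receptor of resident and interferon-exposed macrophages, had a deposited fold of 23.5, beside 2.31 in cluster 8 at a deposited p above 0.05. Cd33 and Siglece, further sialic acid receptors, had deposited folds of 3.23 and 2.32 in cluster 4 and 15.4 and 18.9 in cluster 10. Siglecf, known from eosinophils and alveolar macrophages, was not listed in cluster 4 and had 11.7 in cluster 8. In the Ms4a family of membrane proteins on chromosome 19, 8 of 11 named genes were raised in cluster 4, 7 in cluster 8 and 1 in cluster 10. Ms4a6d had a deposited fold of 8.01 in cluster 4. In the Cd300 family 4 of 7 were raised in cluster 4, 4 in cluster 8 and 3 in cluster 10. Cd300lb led them in cluster 4 at 18.8. The Ms4a shares were 72.7%, 63.6% and 9.09% and the Cd300 shares 57.1%, 57.1% and 42.9%. Over all named genes they were 18.6%, 6.36% and 4.9%.

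Genes of the oxidative burst and of arginine use came next. Of 11 genes for the NADPH oxidase and inflammatory enzymes, 9 were raised in cluster 4, 7 in cluster 8 and 3 in cluster 10. Listed members, whatever their p, numbered 9, 9 and 7. Cyba, Cybb, Ncf1 and Ncf4, subunits of the oxidase, were raised in cluster 4 at deposited folds between 2.61 and 7.12. Arg1, the arginase that breaks arginine down to ornithine, had a deposited fold of 9.37 in cluster 4 and 6.65 in cluster 8 and was listed in no other cluster. Nos2, which makes nitric oxide from the same amino acid, had a deposited fold of 5.42 in cluster 4, was not listed in clusters 8 and 10, and had 30.0 in cluster 11. Both enzymes of arginine use were therefore raised in cluster 4, though the table does not say whether in the same cells. Acod1, which makes itaconate, was not listed in cluster 4 and was raised at 7.22 in cluster 10.

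Complement genes were raised in 10 of 16 cases in cluster 4, with 7 in cluster 8 and 3 in cluster 10. As shares these are 62.5%, 43.8% and 18.8%, beside 18.6%, 6.36% and 4.9% of all named genes. The 3 chains of C1q, which lie together on chromosome 4 between 136880129 and 136898803, had unequal deposited folds of 2.63 for C1qa, 4.30 for C1qb and 7.47 for C1qc. In cluster 8 the order was 2.79, 5.88 and 5.10. C1qa was raised in cluster 10 too, at 4.60, where C1qb and C1qc were listed and not raised. Cfp, which encodes properdin and stabilises the alternative pathway, had the largest deposited fold of the list, 9.29, and the anaphylatoxin receptors C5ar1 and C3ar1 had 5.85 and 2.56. C3 itself was not listed in cluster 4.

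Innate sensing was represented by receptors at the surface, in endosomes and in the cytosol. In the list of Toll-like receptors and their adaptors, 16 of 21 were raised in cluster 4, 8 in cluster 8 and 4 in cluster 10. Whatever the p, 16, 15 and 8 were listed in the same order, and the median deposited folds of those listed were 3.67, 4.87 and 8.30, lowest in cluster 4. Tlr2, a receptor for bacterial lipoproteins, had a deposited fold of 18.0, beside 1.99 in cluster 8 at a deposited p above 0.05. Tlr4, the receptor for lipopolysaccharide, had 2.38 and 3.64 in clusters 4 and 8, and its partners Ly96 and Cd14 had deposited folds of 2.68 and 3.44 in cluster 4. Tlr7, Tlr8 and Tlr13, which sense RNA, had 6.14, 3.18 and 3.21, and their escort Unc93b1 had 3.90. Tlr11 and Tlr12 had deposited folds of 10.1 and 6.33 and belong to the 140 genes with a shared p-value. Tlr1, Tlr3 and Tlr5 were not listed in cluster 4.

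Among 16 inflammasome genes and cytosolic sensors 10 were raised in cluster 4, 7 in cluster 8 and 2 in cluster 10. Nod2, a sensor of bacterial muramyl peptides, had a deposited fold of 13.4, the adaptor Pycard 10.5 and the protease Casp1 8.77. Nlrc4, Nlrp1b and Aim2, which are sensors that assemble with Casp1, had deposited folds of 7.82, 9.60 and 5.49. Nlrp3, the best known of these sensors, was not listed in cluster 4, and had 3.14 in cluster 8 and 20.2 in cluster 10. Mefv, which encodes the sensor pyrin, was likewise not listed in cluster 4 and had 52.2 in cluster 10. The products that Casp1 cuts, Il1b and Il18, were not listed in cluster 4, whereas Il1b was raised at 7.47 in cluster 10.

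Antigen presentation genes were raised at folds that differed strongly within the pathway. For MHC class II, 8 of 11 genes were raised in cluster 4, with 6 in cluster 8 and 3 in cluster 10. At a fold limit of 3, 4 of the 8 would be left in cluster 4. The classical chains H2-Aa and H2-Ab1 had deposited folds of 3.38 and 2.51, and the invariant chain Cd74 had 2.01, beside 3.85 in cluster 8 and 4.29 in cluster 10. H2-Eb1, the beta chain of the other classical molecule, had a deposited fold of 20.0045 in cluster 4, was not listed in cluster 8 and was listed at 4.06 in cluster 10 without being raised. H2-Eb2 had 17.0 and is among the 140 genes with a shared p-value. The master regulator Ciita was named in the table but listed in none of clusters 4, 8 and 10.

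For MHC class I and peptide loading, 11 of 18 genes were raised in cluster 4, 9 in cluster 8 and 5 in cluster 10. With those not raised, 14, 15 and 10 were listed. B2m, the light chain, had deposited folds of 3.89, 4.04 and 3.61 in the 3 clusters, and the heavy chain H2-K1 had 3.58, 3.33 and 3.09. Subunits of the immunoproteasome, Psmb8, Psmb9 and Psmb10, had deposited folds of 4.77, 2.98 and 5.82 in cluster 4. Tap2, which carries peptides into the endoplasmic reticulum, was not listed in cluster 4 and had 13.7 in cluster 8. Counting every gene with an H2 name on chromosome 17, 18 of 24 were raised in cluster 4, 12 in cluster 8 and 8 in cluster 10.

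Genes for co-stimulation and T cell restraint were raised in 14 of 21 cases in cluster 4, 8 in cluster 8 and 6 in cluster 10, and 7 of the 14 had a deposited fold of at least 3. The shares in clusters 4, 8 and 10 were 66.7%, 38.1% and 28.6%, beside 18.6%, 6.36% and 4.9% of all named genes. Cd48, a ligand of the receptor Cd244a, had the largest deposited fold, 16.4. Cd40, through which T cells license antigen-presenting cells, had 8.50 in cluster 4 and 7.34 in cluster 8. Pdcd1lg2 and Cd274, the ligands of the checkpoint receptor PD-1, had deposited folds of 5.94 and 2.74 in cluster 4, and Cd274 had 19.1 in cluster 10. Cd86 and Cd80, the classical co-stimulators, had 3.07 and 2.12. Both ligands of PD-1 and both classical co-stimulators were thus raised in cluster 4.

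Genes induced by interferon were raised in 19 of 31 cases in cluster 4, 13 in cluster 8 and 1 in cluster 10. Their deposited folds in cluster 4 ran from 2.14 for Ifi35 to 9.11 for Ifi207, with Ifit2 at 7.76 and Oas1a at 7.16. Irf7, the factor that amplifies the response, had 3.21 in cluster 4 and 12 in cluster 8. Isg15, Rsad2 and Cmpk2, which are often read as signs of type I interferon, were not listed in cluster 4 and were raised in cluster 8 at 2.64, 2.03 and 32.5. Clusters 4 and 8 each listed 24 of the 31 at any p, and cluster 10 listed 8. The median deposited fold of the listed members was 3.72 in cluster 4 and 4.46 in cluster 8.

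A second list held targets of interferon gamma, among them guanylate-binding proteins and small GTPases that attack vacuoles with microbes. Of its 17 genes, 9 were raised in cluster 4, 5 in cluster 8 and 4 in cluster 10. As shares these are 52.9%, 29.4% and 23.5%, beside 18.6%, 6.36% and 4.9% of all named genes. Cxcl9, a chemokine for activated T cells, had a deposited fold of 25.4 and was listed in no other cluster. Irgm2 had a deposited fold of 22 and was not listed in clusters 8 and 10. Gbp3, Gbp5 and Gbp9 had deposited folds between 6.39 and 7.84, and Gbp2 was listed at 1.74, below the fold limit, with 6.66 in cluster 8. Irf1, a transcription factor of the response, was not listed in cluster 4.

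Cxcl9 and Irgm2 are shown as the interferon targets of largest fold for which RefSeq gives a start. The stretch before Cxcl9 (chr5:92321347-92328079, minus strand) is chr5:92328080-92328329 and holds 1 interferon element. The stretch before the RefSeq start of Irgm2 (chr11:58199618-58222782, plus strand) is chr11:58214727-58214976. It lies between exons of the longer gene model of GENCODE and holds 1 PU-box and 1 interferon element. Mrc1, the mannose receptor (chr2:14229392-14332057, plus strand), is shown with the 228 bases chr2:14229164-14229391 for its 3 PU-boxes. Its deposited folds were 4.93, 3.06 and 3.48 in clusters 4, 8 and 10.
Cxcl9: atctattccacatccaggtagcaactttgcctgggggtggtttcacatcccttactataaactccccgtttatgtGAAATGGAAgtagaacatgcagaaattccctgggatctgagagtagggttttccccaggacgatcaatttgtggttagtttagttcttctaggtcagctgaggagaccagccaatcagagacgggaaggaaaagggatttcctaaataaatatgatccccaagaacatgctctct
Irgm2: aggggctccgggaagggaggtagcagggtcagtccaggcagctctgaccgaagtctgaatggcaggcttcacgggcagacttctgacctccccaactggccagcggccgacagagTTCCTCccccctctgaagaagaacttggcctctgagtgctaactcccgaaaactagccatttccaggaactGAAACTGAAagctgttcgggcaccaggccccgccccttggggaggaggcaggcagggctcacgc
Mrc1: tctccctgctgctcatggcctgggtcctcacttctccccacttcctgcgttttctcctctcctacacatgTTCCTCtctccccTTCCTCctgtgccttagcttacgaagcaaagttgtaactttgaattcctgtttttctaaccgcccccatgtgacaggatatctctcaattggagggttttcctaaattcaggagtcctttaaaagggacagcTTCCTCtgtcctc

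Over all genes, matches to these letters were only slightly more frequent before the genes raised in cluster 4. RefSeq gave a promoter for 2406 of the 3402 raised genes and for 12332 of the 18319 named genes. The 250 bases before the start held the PU-box GAGGAA on either strand in 27.2% of the raised genes of cluster 4 (655 of 2406), in 28.6% of those of cluster 8 and in 29.4% of those of cluster 10. The share was 23.1% over all named genes and 23.1% over all 27025 promoters of the table. The interferon element GAAANNGAA was found in 7.86% of the raised genes of cluster 4, 9.45% of those of cluster 8 and 8.80% of those of cluster 10. It was found in 6.49% of all named genes and in 7.16% of all promoters. Also searched on both strands were the E-box CACGTG, the C/EBP motif TTGCNNAA and the AP-1 motif TGANTCA. They stood before 8.44%, 9.14% and 5.28% of the raised genes of cluster 4 and before 7.96%, 7.89% and 5.14% of all named genes, so that each share was slightly higher among the raised genes. Over all promoters of the table the shares were 6.05%, 9.55% and 6.87%, of which the last 2 lie above those of the raised genes. The first 100 genes of cluster 4 by p had 73 promoters. The PU-box stood before 32.9% of these genes, the interferon element before 15.1% and the C/EBP motif before 15.1%. The E-box stood before 1.37% and the AP-1 motif before 6.85%. Matches of different motifs may overlap in their letters.

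Single lists varied widely around these shares. Of the 29 lists with at least 5 promoters of raised genes, 20 held the PU-box more often than all named genes and 9 did not. For the interferon element 18 lay above the share of all named genes and 11 did not, and 10 of the 29 had no match. The PU-box stood before 8 of the 12 raised macrophage identity genes with a promoter, before 11 of 16 tissue-resident genes and before 7 of 8 genes of the Siglec, Lilr and Pir families. Of these 7, Lilra6, Pira2 and Pirb each held 3 matches and are similar neighbours on chromosome 7, so they are not separate observations. It stood before none of 6 cytokine genes and none of 5 subunits of the vacuolar pump, and before 1 of 11 genes of MHC class I, 1 of 9 immediate-early genes and 3 of 14 myeloid transcription factors. The interferon element stood before all 7 raised targets of interferon gamma with a promoter, namely Cxcl9, Gbp3, Gbp5, Igtp, Irgm1, Irgm2 and Tgtp1, and before 8 of 14 genes of the general interferon list. It also stood before 4 of 10 genes for Toll-like receptors and their adaptors, namely Tlr6, Tlr8, Tlr11 and the adaptor Myd88. It stood before none of the 16 tissue-resident genes, and before none of 9 phagocytic receptors and 9 inflammasome genes. The E-box CACGTG, known from lysosomal genes, stood before 2 of 17 raised lysosomal hydrolase genes. The lists were chosen for what their genes are known to do, and known targets of these factors are among them. A match is a description of letters and shows neither binding nor a cause, and a window without a match says nothing about the factor.

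**Figure D4:**
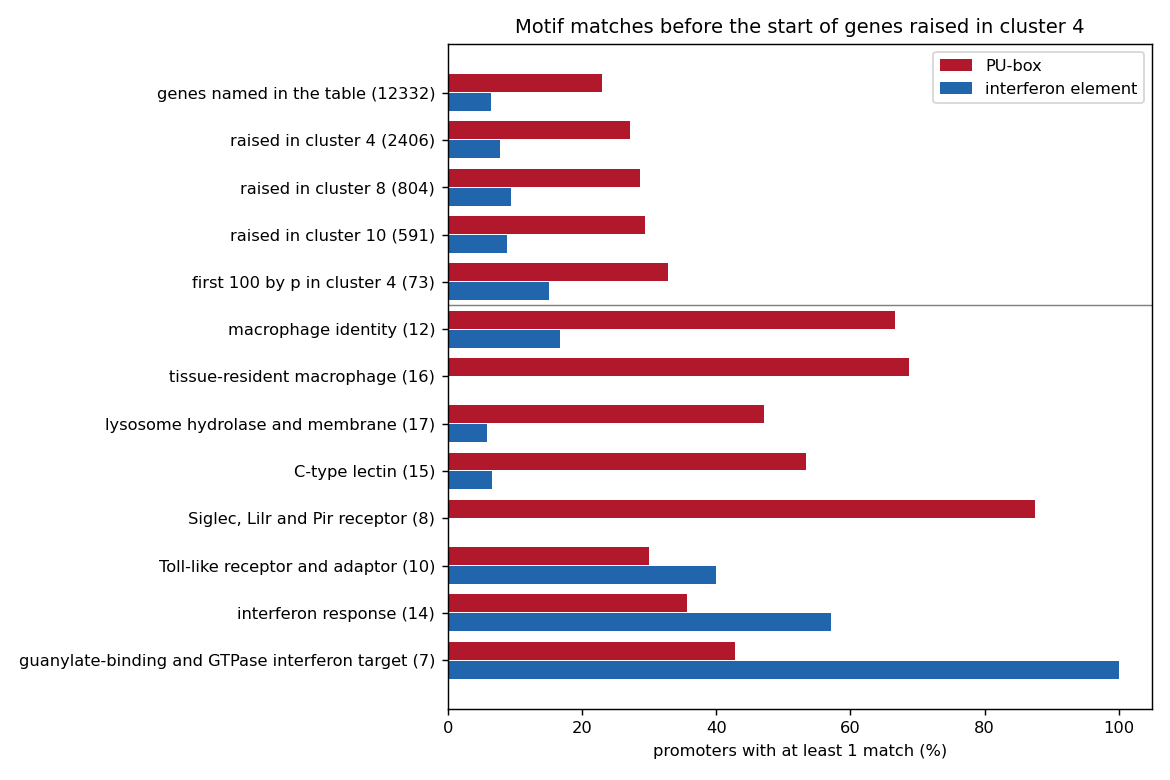
Percent of promoters (250 bases before the RefSeq start) with at least 1 match to the PU-box (red) or the interferon element (blue), on either strand; the number of promoters is in parentheses. The sets over the grey line are whole clusters or the first 100 genes by p, and those under it are members of single lists raised in cluster 4. Only some lists were picked for drawing, and all of these lie above the PU-box share of all named genes. Of the 29 lists with at least 5 promoters, the 9 at or below that share are not drawn. The bars of whole clusters lie near those of all named genes, while the PU-box reaches 7 of 8 in the Siglec, Lilr and Pir list and the interferon element 7 of 7 among targets of interferon gamma.

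Chemokines were raised in similar numbers in clusters 4 and 8, with different members at the top. Of 25 named chemokines 11 were raised in cluster 4, 12 in cluster 8 and 6 in cluster 10. These shares are 44%, 48% and 24%, beside 18.6%, 6.36% and 4.9% of all named genes. The median deposited fold of the chemokines listed was 7.96, 3.40 and 4.84. After Cxcl9 and Pf4, Cxcl1, which draws neutrophils, had a deposited fold of 16.4 in cluster 4 and 3.0 in cluster 8. Ccl2, which draws monocytes through Ccr2, had 9.92 and 3.75, and Ccl7 and Ccl8, its neighbours on chromosome 11, had 7.96 and 8.84 in cluster 4. Cxcl10 and Ccl12 lay the other way, with deposited folds of 4.43 and 3.60 in cluster 4 beside 13.5 and 11.7 in cluster 8. Ccl3, Ccl4 and Cxcl3 were not listed in cluster 4 and had 33.9, 39.7 and 69.8 in cluster 10.

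Chemokine receptors gave a count near the background in cluster 4. Of 12 named receptors, 2 were raised in cluster 4, against 6 in cluster 8 and 5 in cluster 10. Ccr2 had a deposited fold of 6.48 in cluster 4. Cxcr3 and Cxcr6, known from T cells, were not listed in cluster 4 and had 14.4 and 54.3 in cluster 8. The share of members raised in cluster 4 was 16.7%, close to the 18.6% of all named genes.

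Cytokine genes were raised in 8 of 24 cases in cluster 4, 3 in cluster 8 and 7 in cluster 10. After Il18bp came Osm, oncostatin M, with a deposited fold of 10.2, and Tnfsf13b, the B cell survival factor BAFF, with 8.2. Il6 had 8.0 in cluster 4, Il27 had 7.77 and Tgfb1 had 4.52. Tnf was listed at 1.56 in cluster 4, below the fold limit, and raised at 17.3 in cluster 10. Il10, Il1b, Il1rn and Csf1 were not listed in cluster 4, and the last 3 of them were raised in cluster 10 at 7.47, 9.60 and 34.0.

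The receptors for cytokines were raised in more cases than the cytokines, with 16 of 25 in cluster 4 and 8 each in clusters 8 and 10. As shares these are 64%, 32% and 32%, beside 18.6%, 6.36% and 4.9% of all named genes. Counting every listed member, the clusters were alike in number, with 16, 16 and 17, at median deposited folds of 4.13, 2.82 and 4.49. Tnfrsf14, known as HVEM, had a deposited fold of 12.8, Il21r had 10.8 and Il10ra, a chain of the interleukin-10 receptor, had 6.81. Ifnar1 and Ifnar2, the chains of the type I interferon receptor, had deposited folds of 2.51 and 4.97, and Ifngr2, of the interferon gamma receptor, had 3.03. Csf3r, the receptor for the neutrophil growth factor, was not listed in cluster 4. Of growth and angiogenic factors 14.3% were raised in cluster 4, near the 18.6% of all named genes. These 3 of 21 are Ereg, a ligand of the EGF receptor, at 10.9, Hgf, the ligand of Met, at 7.68 and Thbs1, thrombospondin, at 2.64. Vegfa, Areg, Hbegf and Pdgfb were not listed in cluster 4.

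**Figure D5:**
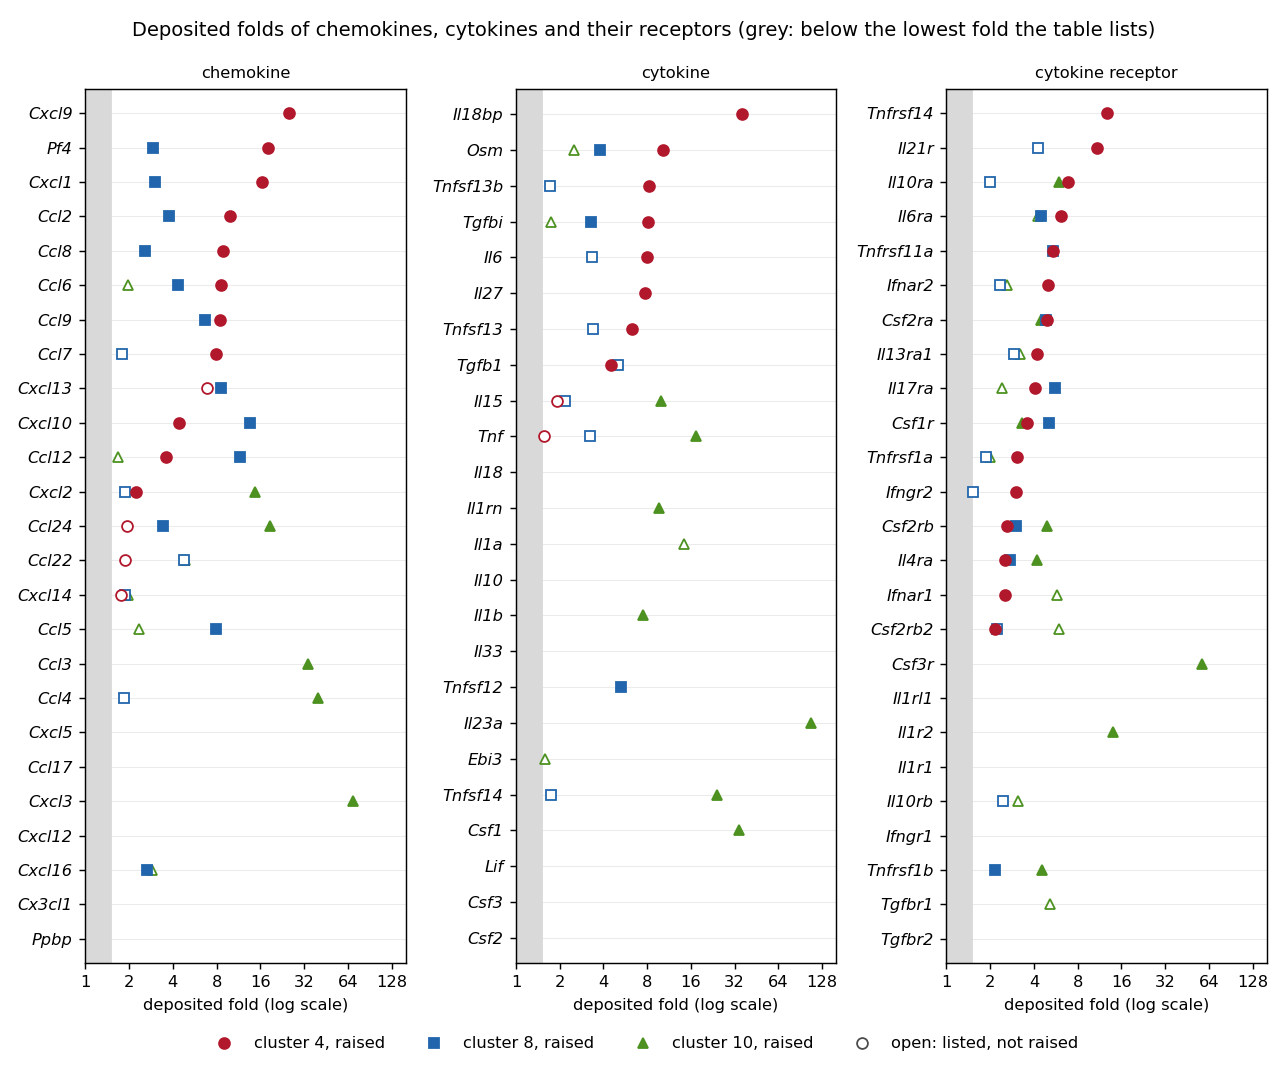
Deposited folds (log scale) of chemokines, cytokines and cytokine receptors in clusters 4 (circles), 8 (squares) and 10 (triangles); filled symbols are raised, open ones listed but not raised, and a missing symbol means not listed. The grey band covers folds under 1.5, which the table does not give. Cxcl9, Pf4 and Cxcl1 head the chemokines of cluster 4, and Ccl3, Ccl4 and Cxcl3 have filled symbols for cluster 10 alone.

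Transcription factors of the myeloid lineage were raised in 19 of 25 cases in cluster 4, 9 in cluster 8 and 5 in cluster 10. At any p, 19, 19 and 13 of the 25 were listed, with median deposited folds of 3.93, 2.69 and 3.96. Cebpa, which directs progenitors to the myeloid fate, had the largest deposited fold, 13.2, beside 1.86 in cluster 8 at a deposited p above 0.05. Maf, a leucine zipper factor of macrophages, had 2.7. Zeb2, a repressor that maintains the identity of tissue macrophages, had 8.27, and Irf8, needed for monocytes and for dendritic cells, had 6.83 in cluster 4 and 7.21 in cluster 8. Nr1h3, the oxysterol receptor LXR alpha, had a deposited fold of 6.58, and Pparg was not listed.

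Immediate-early genes are known to be switched on quickly by stimuli and by the dissociation of tissue. Of 25 such genes, 9 were raised in cluster 4 and 9 in cluster 8, against 14 in cluster 10. Of the 9 in cluster 4, 3 had a deposited fold of at least 3. The raised shares of these genes are 36%, 36% and 56%, beside 18.6%, 6.36% and 4.9% of all named genes. Apart from Egr2, their deposited folds in cluster 4 were at most 3.84, the value of Klf2, and the median of the listed members was 2.50, below the 2.76 of all listed genes. Fos had 2.64 and Junb 2.06, while Jun, Egr1, Ier2 and Nr4a1 were not listed. In cluster 10 Egr1 had a deposited fold of 15.6 and Dusp2 had 55.4. Whether the handling of the tissue had a part in these values was not tested.

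Metabolic groups with known roles in macrophages showed single genes of large fold. Of 17 genes for eicosanoids, the lipid mediators made from arachidonic acid, 10 were raised in cluster 4, 4 in cluster 8 and 3 in cluster 10. Ptgs1, the constitutive cyclooxygenase, had a deposited fold of 19.4, while the inducible Ptgs2 was listed at 1.57, below the fold limit, and raised at 7.03 in cluster 10. On the leukotriene side Alox5, Alox5ap and Ltc4s had deposited folds of 9.69, 7.0 and 9.57 in cluster 4, and Tbxas1, which makes thromboxane, had 7.39. The enzymes from arachidonic acid to leukotriene C4 were thus all raised in cluster 4.

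Of 16 genes for iron and heme, 7 were raised in cluster 4 and 4 in each of the other 2 clusters. The shares in clusters 4, 8 and 10 were 43.8%, 25% and 25%, beside 18.6%, 6.36% and 4.9% of all named genes. Hmox1, which opens the heme ring and frees its iron, had a deposited fold of 11, and Slc11a1, which pumps metal ions out of phagosomes, had 8.72. The ferritin chains Fth1 and Ftl1 had deposited folds of 2.01 and 2.44. The iron exporter Slc40a1 was listed at 1.54, under the fold limit. Among 24 genes for cholesterol and lipid handling 14 were raised, and Ch25h, which makes 25-hydroxycholesterol, had the largest deposited fold, 17.5, and was not listed in clusters 8 and 10.

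Of 18 matrix proteases and inhibitors, clusters 4 and 8 each had 4 raised. This share, 22.2%, lies near the background of 18.6% in cluster 4 and above the 6.36% of cluster 8, and the median deposited fold of those listed in cluster 4 was 2.07. Mmp19 had 6.61, and Mmp12, the elastase of macrophages, had 5.93 beside 3.0 in cluster 8. Mmp8 and Mmp13 had 2.18 and 2.46 beside 10.8 and 7.68. Mmp2, Mmp9 and Mmp14 were not listed in clusters 4, 8 and 10. Of 12 genes of osteoclasts 5 were raised, with Ostm1 at 7.57, and Ctsk, the collagen-degrading protease of osteoclasts, was listed at 2.39 with a deposited p above 0.05.

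Receptors for nucleotides, lipids and chemotactic peptides closed the survey, with 12 of 21 raised in cluster 4, 9 in cluster 8 and 5 in cluster 10. S1pr1, a receptor for sphingosine phosphate, had a deposited fold of 21.8, and was not listed in clusters 8 and 10. P2ry12, an ADP receptor known from microglia and platelets, had 8.78, beside 2.06 in cluster 8 at a deposited p above 0.05. Gpr183, P2ry14 and P2rx7 lay the other way, with deposited folds of 4.22, 2.05 and 1.58 in cluster 4 and 15.7, 15.4 and 31.8 in cluster 8.

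Over the 45 lists, 350 of the 705 named members were raised in cluster 4. The lists were chosen with earlier results of these data known, and their members overlap, so that these counts are a description of cluster 4 and carry no p-value.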

How the data were processed

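Single-cell RNA libraries of 2 tumors, 1 cystic and 1 tubular adenocarcinoma, were made on the inDrop platform, per the labels' protocols, using TruDrop library preparation, and samples were grouped by the tumor type in their titles. The submitters' processing notes name mm10, STAR 2.7.3a, Partek and DESeq2 3.5 without their roles. No source used here gives the filters on cells, the treatment of doublets, the clustering or the depth. Cluster sizes are not stated beyond the table's label, whose fixed number of cells may refer to tumors or to clusters. The only values are comparisons made by the authors. For each of 11 clusters the authors deposited gene names with a p-value and a fold, which is a linear ratio per the file headers. The test, its adjustment and the reference of the fold are not stated. The deposited p-value was used as a limit and is not printed. There were 0 columns of values per sample, so no mean, error or comparison of tumors could be computed.

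Genes at or above a deposited fold of 2 whose deposited p did not exceed 0.05 were counted over all 18319 named genes and in 45 gene lists with 791 different genes, of which 705 are named in the table. The members and the lists were chosen with earlier results of these data known. Named genes are members of these lists, the 25 raised genes of largest fold, the first 25 by deposited p, and the 20 of largest fold among the first 500 by p, without ribosomal, mitochondrially encoded and predicted genes. Genes named for their absence belong to the same lists, and some genes that this rule takes, though counted, are left unnamed. Coordinates come from GENCODE M21, on GRCm38, in which 17895 of the names (97.7%) had 1 match by symbol. Promoter sequences are those of RefSeq on GRCm38.p6, with the first listed start of each gene. The reading of the table and the counts were checked on a simulated table. Python 3.11.15, pandas 2.3.3, numpy 2.4.6 and matplotlib 3.10.9 were used. Alternatives were the limits on fold and on p.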

Additional observations from a re-analysis of the deposited data

How the results depend on the processing

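The number of raised genes depended on the limits chosen. In cluster 4, 3402 genes were raised, and 2220 at a deposited fold of at least 3, while a deposited p of at most 0.01, no limit on p and a fold above 1.5 gave counts within 1.5 times of it. In cluster 8 the count of 1166 became 729 at a p of at most 0.01 and 3719 with no limit on p, and in cluster 10 the count of 897 became 2907 with no limit on p. Of the 45 lists, the number of members raised in cluster 4 stayed within 1.5 times in 44 at a p of at most 0.01, 43 at a fold above 1.5, 35 at a fold of at least 3 and 44 with no limit on p. The 10 lists that moved at a fold of at least 3 were MHC class II (8 to 4), co-stimulation (14 to 7), immediate-early (9 to 3), lysosomal proteases (11 to 7), the vacuolar pump (7 to 4), iron and heme (7 to 4), cholesterol and lipid handling (14 to 9), matrix proteases (4 to 2), neutrophil (2 to 1) and B cell genes (1 to 0). Matrix proteases rose to 8 and endothelial genes from 0 to 1 at a fold above 1.5. Fibroblast and pericyte genes went from 2 to 1 at a p of at most 0.01, and endothelial genes from 0 to 1 with no limit on p. The different list members raised in cluster 4 numbered 350, and between 264 and 405 under the alternatives. The depth is unknown, and genes with folds of 1.5 or less are not in the table, so a gene that is not listed is not shown to be absent from the cells. No paired analysis was possible because each tumor type has 1 library and the table has no columns of samples. For the same reason no library could be left out.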

Other observations

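Several genes of large fold in cluster 4 are known from tissues other than the myeloid lineage. Grik4, a subunit of a glutamate receptor of neurons, had a deposited fold of 36.3, Otof, a calcium sensor of inner hair cells, had 35.8, and Ryr1, the calcium release channel of skeletal muscle, had 26.8. Srrm3, a splicing protein of neurons, had a deposited fold of 27.0. Apart from these genes of other tissues, St8sia4, which adds polysialic acid to surface proteins, had 33.2. None of these genes, St8sia4 included, was listed in cluster 8 or 10. In the order of the deposited p, Grik4 and Srrm3 came late, at places 3697 and 3536. Otof held place 1868, Ryr1 place 1246 and St8sia4 place 406. Trim5 and Serpina3g, an antiviral factor and a serpin of immune cells, had deposited folds of 29.0 and 28.1, and Nfe2, a transcription factor of the erythroid and platelet lineages, had 23.8. Slc37a2, a sugar phosphate carrier of macrophages, stood among the first 500 genes by p with a deposited fold of 15.6, and Cmklr1, a receptor for the chemoattractant chemerin, with 14.1.

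In cluster 4, 140 genes shared 1 deposited p-value, equal to 9 significant digits, at places 3208 to 3347 of the p order. All 140 were raised, with deposited folds from 2.58 to 35.6 and a median of 7.14, and 44 of the 135 matched to GENCODE were protein coding (32.6%), while 82.9% of all matched raised genes were. The list members among them are H2-Eb2, Marco, Tlr11 and Tlr12. The corresponding groups held 54 genes in cluster 8, with Clec9a, Cd8a and Ngp among them and a median fold of 19.9, and 34 genes in cluster 10, with Cd3e among them and a median of 55.9. These groups were noticed after the values were seen, and what the genes share was not tested.

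The first 100 genes of cluster 4 by deposited p had a median fold of 4.96, and 93.9% of those matched were protein coding. The last 1762 genes of that order had a median fold of 2.23, and 219 of them were raised. By chromosome, the share of named genes raised in cluster 4 ran from 15.4% on chromosome 12 to 21.3% on chromosome 17, which carries the H2 genes, around the 18.6% of all named genes, leaving aside the 9 named genes of chromosome Y, of which 0 were raised.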
